A study of Homo sapiens with 22 samples.

Results

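The myeloid lineage transcription factors described here are 10 of the 20411 protein-coding genes in the expression tables: CEBPA, CEBPB, CEBPD, CEBPE, SPI1, GFI1, IRF8, KLF4, RUNX1 and MYB. They were taken by gene symbol, and all 10 were found in both tables. RNA-seq was made of 2 acute myeloid leukemia cell lines, MOLM-13, a line with monocytic features, and NB4, a promyelocytic line that carries the PML::RARA fusion. Both lines were labelled as wild type and were treated with 2 μM FP54, a compound that brings the m6A demethylase FTO to the VHL ubiquitin ligase for degradation, or with its solvent DMSO, for 48 hours. There were 3 libraries of each treatment in each line, 12 in all, and the question asked of them is what FP54 does to the transcriptome of each line. Each line stands for 1 leukemia, and the labels do not say whether the libraries came from separate cultures, so p-values measure the spread between these libraries, which may be technical.

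Myeloid cells are made from blood progenitors by a small set of transcription factors that work in sequence and in competition. RUNX1 and MYB act in progenitors, MYB holding them in proliferation, and PU.1, the product of SPI1, together with C/EBPα commits them to the myeloid lineage. C/EBPε and GFI1 then drive granulocytes, IRF8 and KLF4 drive monocytes, and C/EBPβ and C/EBPδ are induced in stress, inflammation and emergency granulopoiesis.

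Values are RPKM, reads scaled by library size and by gene length, which allow levels of different genes to be compared per length. The length that gave whole reads is that of all annotated exons of a gene together, 15574 bases for RUNX1 and 1252 for CEBPD. Genes with many annotated exons can thus stand lower than by the length of a single transcript. Reads on genes numbered 5835173 to 22342375 a library, the lowest in MOLM-13 FP54 replicate 2. Every member but KLF4 rested on 144 to 14227 reads in each library, and KLF4 on 11 to 160. The line labels were checked against marker genes: HOXA9 averaged 21.3 RPKM in MOLM-13 and 0.234 RPKM in NB4 with DMSO, and MPO 16.1 and 2170 RPKM, whereas CTSG, taken as an NB4 marker, was higher in MOLM-13 (116 against 58.5 RPKM). Olfactory receptor genes, 413 genes that leukemia cells should hardly transcribe, averaged 0.0529 RPKM in NB4 with FP54 against 0.00287 RPKM with DMSO, and no more than 0.00837 RPKM in any MOLM-13 library; subtracting that level changed no count of members given below. Platelet markers summed to 13.8 to 15.2 RPKM in NB4 with FP54 and 1.59 to 2.47 RPKM with DMSO, all from ITGA2B with PF4 at 0. T cell markers summed to 10.2 to 10.7 against 6.04 to 7.01 RPKM there, mostly from CD3D (means of 10.3 and 6.35 RPKM). In NB4, CD3E reached at most 0.201 RPKM and CD2 at most 0.0574 RPKM. Epithelial markers were at 8.23 to 11.3 against 7.83 to 8.58 RPKM in NB4, with overlap, all from EPCAM with KRT19 at 0. Fibroblast markers, 1 of the 3 at 0 with FP54, summed to 0.189 to 0.405 RPKM in NB4 with FP54 and 0.00448 to 0.0414 RPKM with DMSO. Erythroid markers summed to at most 0.235 RPKM and B cell markers to at most 1.73 RPKM in any library; the part of these genes in the results below was not tested. Replicate 2 of the DMSO libraries stood apart from the other two in both lines: the chi-square per degree of freedom of its reads over genes was 40.6 and 30.4 in NB4, against 14.3 between replicates 1 and 3, and 30.6 and 32.3 in MOLM-13, against 16.6. Between FP54 libraries the same measure was 2.62 to 5.00 in NB4 and 22.9 to 29.0 in MOLM-13. The 2 NB4 groups thus differed in how alike their libraries were, while the test uses 1 spread for both. In NB4, DMSO replicate 2 was the highest of the DMSO libraries for CEBPA, CEBPB, CEBPD, CEBPE and SPI1 and the lowest for GFI1, IRF8, RUNX1 and MYB. Without it the log2 fold changes in NB4 were 1.69 for CEBPB, -0.90 for CEBPD, -0.62 for CEBPE and -0.70 for KLF4, all still called, and MYB was called lower as well (-0.61). Without DMSO replicate 2 of MOLM-13, IRF8 was still called (-0.59) and CEBPD was not (0.39). These are bulk libraries, in which fewer cells of a kind and less RNA per cell cannot be told apart.

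Stretches of 3 C/EBP promoters are shown because CEBPB and CEBPE passed the test in NB4, in opposite directions, and CEBPA did not, and because they differ in what lies just before their starts. The windows, from RefSeq on GRCh38.p14, are the 250 bases before each annotated start of 8 of the 10 members, and both strands were searched. CEBPD and SPI1 had no entry, so CEBPD, which was called in both lines, is missing from this set. A TATAAA box lay in 10.7% of all such windows, a TGACG half-site of the cyclic AMP response element in 21.2%, and GAGGAAG, letters of the kind that PU.1 binds, in 11.2%. Capitals mark the match in each 30-base stretch, which is given 5′ to 3′ on the strand of the gene.
CEBPA, chr19:33302547-33302576, minus strand: cggcctgccgggTATAAAagctgggccggc
CEBPB, chr20:50190789-50190818, plus strand: acgggccgccctTATAAAtaaccgggctca
CEBPB, chr20:50190761-50190790, plus strand: gaggggccggcgTGACGcagcggttgctac
CEBPE, chr14:23119278-23119307, minus strand: cattgactacaGAGGAAGgaaaaggaagca
The TATAAA boxes of CEBPA and CEBPB began 30 and 29 bases before the annotated start, and the TGACG of CEBPB began 57 bases before it. RefSeq starts of CEBPB lie at 50190583 and 50190830, and the stretches shown come before the latter only. The GAGGAAG of CEBPE began 41 bases before its start, which is a RefSeq start inside the GENCODE gene. The same search found TGACG in KLF4 as well, and CCAAT, which 32.0% of all windows held, in GFI1, CEBPB and RUNX1. A match describes the letters only, and nothing was measured on these promoters.

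With DMSO the lines differed in which factors they held most of. In MOLM-13 the order of mean levels began with SPI1 (155 ± 11.9 RPKM, SD, n = 3), followed by CEBPA (98.8 ± 10.9 RPKM) and MYB (93.9 ± 11.7 RPKM), the last of which overlapped each other. CEBPD, CEBPB, IRF8 and GFI1 came next between 42.7 and 27.3 RPKM, each overlapping its neighbour, and CEBPE, RUNX1 and KLF4 were lowest, without overlap. By reads the order was another: RUNX1 rested on 1650 to 2119 there, CEBPD on 667 to 1021 and CEBPE on 248 to 320. In NB4, MYB (110 ± 14.9 RPKM), SPI1 (80.2 ± 13.4 RPKM) and CEBPD (66.3 ± 12.9 RPKM) came first, each overlapping the next, then CEBPA (38.7 ± 2.35 RPKM), CEBPE and GFI1, which overlapped each other, CEBPB and IRF8, which did too, and RUNX1 and KLF4. In all libraries 4 members were higher in MOLM-13, namely IRF8 (3.02-fold), CEBPB (2.73-fold), CEBPA (2.55-fold) and SPI1 (1.93-fold). CEBPE (2.91-fold), KLF4 (2.84-fold) and CEBPD (1.55-fold) were higher in all NB4 libraries, and GFI1, RUNX1 and MYB overlapped between the lines. The 2 lines stand in separate tables, so these levels are described and not tested.

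**Figure D1:**
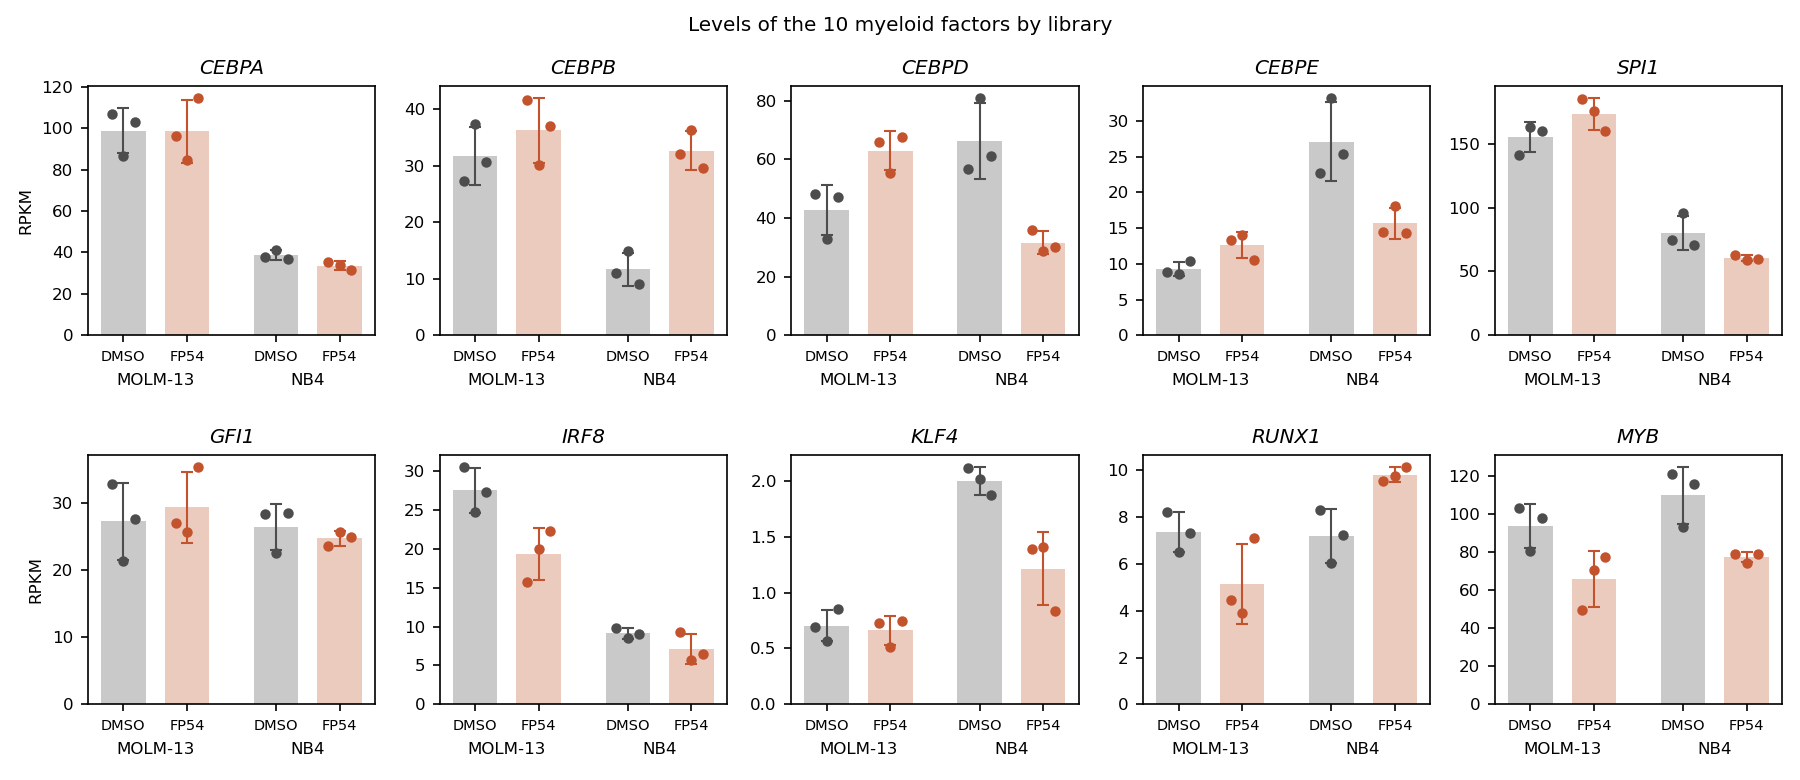
Level of each of the 10 factors in RPKM (vertical axes, each from 0) in MOLM-13 and NB4 cells treated with DMSO (grey) or FP54 (orange). Points are libraries, bars are means and whiskers are ± 1 SD (n = 3); CEBPB in NB4 is the member whose FP54 libraries stand farthest above their controls, at 29.6 to 36.4 against 9.13 to 14.8 RPKM.

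With FP54, CEBPD was called in both lines, in opposite directions, IRF8 in MOLM-13, and CEBPB, CEBPE and KLF4 in NB4. A gene was called higher or lower where limma on log2(RPKM + 0.1) gave a log2 fold change of 0.5 or more in size with an unadjusted p below 0.01, and Benjamini-Hochberg adjusted p-values over all genes tested are given beside it. In MOLM-13, 1 of the 9 members tested was called lower (IRF8) and 1 higher (CEBPD), where 9.04% and 9.3% of all 9710 genes were called lower and higher; 1 in 9 is near that background. In NB4, 3 of 10 were lower (CEBPD, CEBPE and KLF4) and 1 was higher (CEBPB), where 10.7% and 18.6% of 9853 genes were called. With median-ratio scaling, which lowers the median of all genes in NB4 from 0.07 to -0.13 on the log2 scale, 6 members were lower and 1 was higher in NB4, the additional ones being IRF8, MYB and SPI1. The FP54 and DMSO libraries did not overlap for 4 of 9 members in MOLM-13 (37.1% of all genes) and for 8 of 10 in NB4 (60.5%). The median log2 fold change of the members was 0.11 in MOLM-13, beside 0.00 for all genes, and -0.39 in NB4, beside 0.07. With 3 libraries a group, the smallest two-sided p of an exact permutation test is 0.1, so single genes rest on the fit across all genes.

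**Figure D2:**
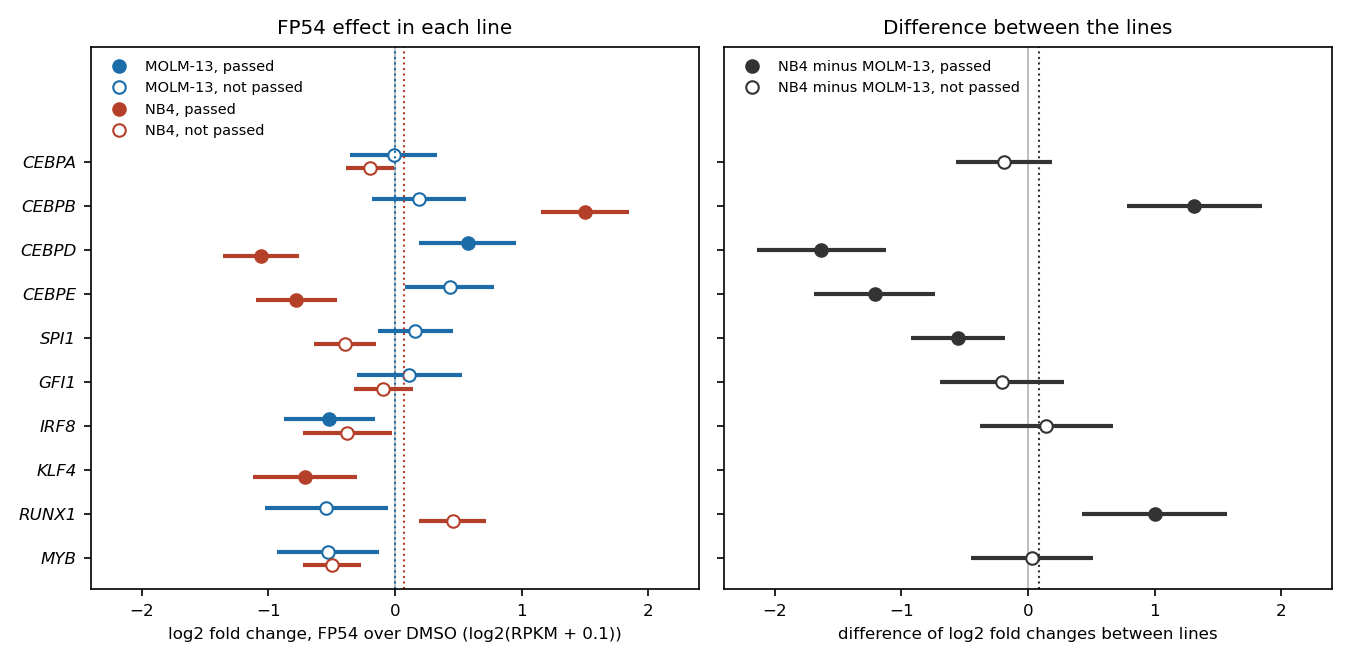
Log2 fold change of each member with FP54 in MOLM-13 (blue) and NB4 (red), and the difference of those changes between the lines (black), with 95% confidence intervals from limma; filled points passed the test and dotted lines mark the median of all genes. Of the changes within a line, CEBPB at 1.50 and CEBPD at -1.06 in NB4 lie farthest from 0. Of the differences between lines, CEBPD at -1.63 does, and KLF4 has no value in MOLM-13, where it was under the minimum level.

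CEBPB, a single-exon gene on chr20 (hg38, 50190830 to 50192668, plus strand), encodes C/EBPβ, which is induced by cytokines and cell stress and drives emergency granulopoiesis and macrophage genes. In NB4 it was at 11.0, 14.8 and 9.13 RPKM with DMSO and at 32.1, 36.4 and 29.6 RPKM with FP54. Every FP54 library was above every DMSO library, and the means differed 2.80-fold. The log2 fold change was 1.50 ± 0.16 (SE; limma, adjusted p = 3e-05) and stayed between 1.34 and 1.69 when any 1 library was left out. In MOLM-13, where the DMSO level was already 31.8 RPKM, CEBPB was at 27.3, 37.4 and 30.7 RPKM with DMSO and 41.6, 30.1 and 37.0 RPKM with FP54. These groups overlapped, and the log2 fold change of 0.19 ± 0.17 (adjusted p = 0.455 in limma) had an interval of -0.18 to 0.56. The effect in NB4 exceeded that in MOLM-13 by 1.31 ± 0.25 on the log2 scale (limma interaction, adjusted p = 0.00261), so that with FP54 the NB4 level (32.7 ± 3.42 RPKM, SD, n = 3) came within the range of MOLM-13 with FP54 (30.1 to 41.6 RPKM). In all, 5 of 9 members differed between the lines by this test, beside 14.2% of the 8849 genes tested in both. The annotation holds CEBPB-AS1 on the opposite strand; the library kit keeps strand, but the strand setting of the counting was not stated, so reads of the pair may not be separate.

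CEBPD, which encodes C/EBPδ, an acute-phase and inflammatory factor of myeloid cells, moved in opposite directions in the 2 lines. It is a single-exon gene on chr8 (47736913 to 47738164, minus strand). With DMSO the NB4 libraries were at 56.8, 80.9 and 61.1 RPKM and with FP54 at 35.9, 28.6 and 30.2 RPKM, without overlap. The level with FP54 was 47.6% of the DMSO level, and the log2 fold change was -1.06 ± 0.13 (limma, adjusted p = 0.000114). In MOLM-13 it was at 48.3, 32.7 and 47.0 RPKM with DMSO and at 65.9, 55.4 and 67.4 RPKM with FP54, again without overlap but now with FP54 higher. The log2 fold change there was 0.57 ± 0.17 (adjusted p = 0.0441 in limma), and the call was lost on leaving out FP54 replicate 1 (adjusted p = 0.151), FP54 replicate 3 or DMSO replicate 2. The difference between the lines, -1.63 ± 0.24 (limma interaction, adjusted p = 0.000334), passed with each of the 12 libraries left out and was the largest of any member.

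CEBPE encodes C/EBPε, which controls the late steps of granulocyte maturation and the secondary granules. It has 2 exons on chr14 (23117036 to 23120256, minus strand). In NB4, which expressed more of it, CEBPE was at 22.7, 33.3 and 25.4 RPKM with DMSO and 14.5, 18.1 and 14.4 RPKM with FP54, and all FP54 libraries were lower. It fell by 0.78 ± 0.14 on the log2 scale (limma, adjusted p = 0.00118). In MOLM-13 it was at 8.88, 8.63 and 10.5 RPKM with DMSO and 13.4, 14.0 and 10.6 RPKM with FP54, where FP54 replicate 3 lay beside the highest DMSO library. That difference, 0.43 ± 0.16, missed the test (adjusted p = 0.0818 in limma), and without FP54 replicate 3 CEBPE passed it. The effects in the lines differed by -1.21 ± 0.22 (limma interaction, adjusted p = 0.00221).

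CEBPA encodes C/EBPα, the founding C/EBP factor of granulocytes, and lies in a single exon on chr19 (33299934 to 33302534, minus strand). In MOLM-13 it stood at 107, 86.4 and 103 RPKM with DMSO and 96.0, 84.7 and 115 RPKM with FP54. The groups overlapped fully, and the log2 fold change of -0.01 ± 0.15 (adjusted p = 0.971 in limma) had an interval from -0.35 to 0.33. NB4 cells had 37.8, 41.3 and 36.9 RPKM with DMSO and 35.4, 34.1 and 31.4 RPKM with FP54. There the FP54 libraries were all lower, by 0.20 ± 0.085 on the log2 scale, short of the test (adjusted p = 0.0710 in limma). The difference between the lines, -0.19, was not past the test either (limma interaction, adjusted p = 0.511), with an interval from -0.57 to 0.19.

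Added up per length, the 4 C/EBP genes differed in make-up between the treatments, most of all in NB4. In NB4 the sum was 144 ± 23.1 RPKM (SD, n = 3) with DMSO and 114 ± 6.97 RPKM with FP54. CEBPB made up 8.60, 8.71 and 6.88% of it with DMSO and 27.3, 31.0 and 28.0% with FP54. CEBPD made up 44.3, 47.5 and 46.1% with DMSO and 30.4, 24.4 and 28.6% with FP54. CEBPB thus went from the smallest to about the same share as CEBPA, with a CEBPB to CEBPA ratio of 0.299 ± 0.0561 with DMSO and 0.972 ± 0.0826 with FP54, and CEBPE dropped from 18.8 to 13.8% of the sum. In MOLM-13 the sum was 183 ± 15.1 RPKM with DMSO and 210 ± 23.4 RPKM with FP54, and CEBPA held the largest share in both. That share was 54.0 ± 1.78% with DMSO and 46.7 ± 2.90% with FP54, while CEBPD had 23.2 ± 2.97% and 29.9 ± 0.524%, both without overlap between treatments. Shares of 1 sum depend on each other, and they were not tested beyond the single genes above.

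**Figure D3:**
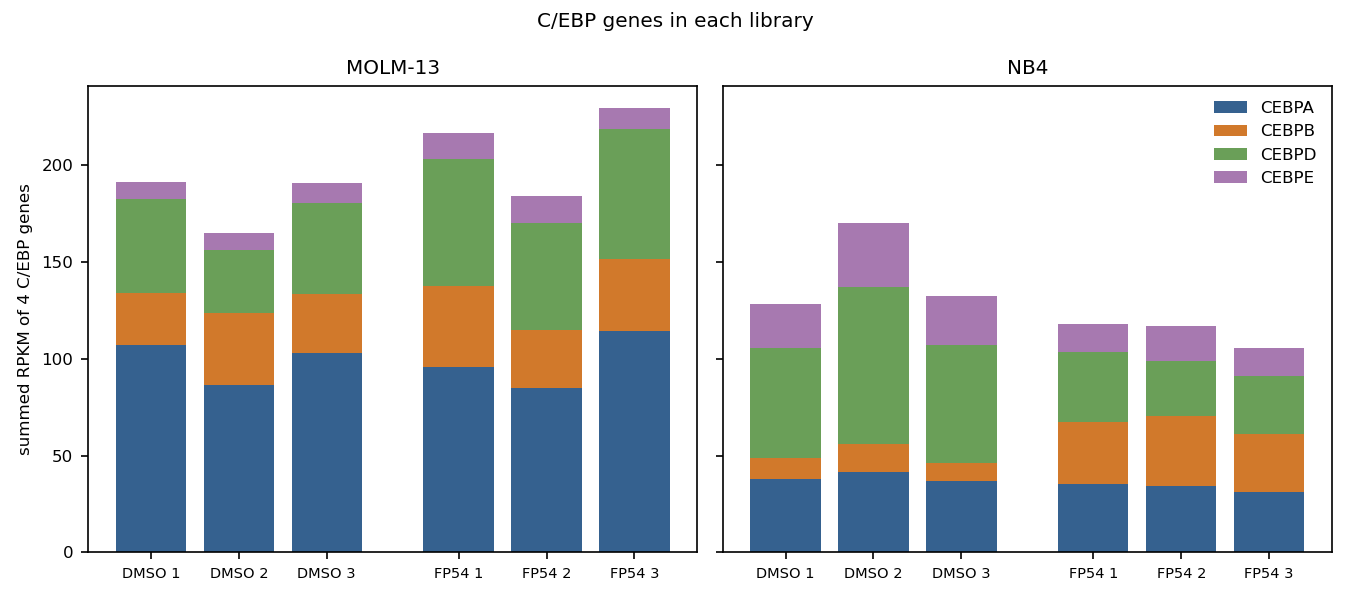
Summed RPKM of the 4 C/EBP genes (vertical axis) in each library, with DMSO replicates 1 to 3 and FP54 replicates 1 to 3 of MOLM-13 and NB4 along the horizontal axis and colors for the genes. In NB4 the CEBPB part grows from 6.88 to 8.71% of the sum with DMSO to 27.3 to 31.0% with FP54, and the CEBPD part shrinks.

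SPI1 encodes PU.1, the ETS factor that commits progenitors to the myeloid lineage and whose dose separates granulocytic from monocytic fates. It has 5 exons on chr11 (47354860 to 47378547, minus strand). In NB4 it was at 74.4, 95.5 and 70.8 RPKM with DMSO and 62.9, 59.2 and 59.4 RPKM with FP54, without overlap. The log2 fold change of -0.39 ± 0.11 (limma, adjusted p = 0.0125) was under the fold minimum of 0.5. In MOLM-13 SPI1 was at 141, 163 and 160 RPKM with DMSO and 185, 175 and 160 RPKM with FP54, with overlap (0.16 ± 0.13, adjusted p = 0.415 in limma). The difference between the lines was -0.56 ± 0.17 (limma interaction, adjusted p = 0.0463), close to the threshold, and it was lost in 9 of 12 fits with 1 library left out, the adjusted p reaching 0.111 without NB4 FP54 replicate 3.

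GFI1, IRF8 and KLF4 stand at the branch between granulocytes and monocytes. GFI1, a zinc finger repressor that favors granulocytes, has 7 exons on chr1 (92473043 to 92486925, minus strand). It was at 32.9, 21.4 and 27.5 RPKM with DMSO and 27.0, 25.6 and 35.3 RPKM with FP54 in MOLM-13, and at 28.4, 22.5 and 28.5 RPKM and 23.5, 25.6 and 25.0 RPKM in NB4. The treatments overlapped in both lines, and its log2 fold changes of 0.11 ± 0.19 and -0.09 ± 0.10 had intervals of -0.30 to 0.53 in MOLM-13 and -0.32 to 0.14 in NB4. GFI1 was the only member whose libraries overlapped between treatments in each line and also between the lines with DMSO.

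IRF8, an interferon regulatory factor that promotes monocytes and dendritic cells at the expense of granulocytes, has 9 exons on chr16 (85899116 to 85922606, plus strand). In MOLM-13 it was at 30.5, 24.8 and 27.3 RPKM with DMSO and 15.7, 20.0 and 22.2 RPKM with FP54. All FP54 libraries were lower, and it fell by 0.52 ± 0.16 on the log2 scale (limma, adjusted p = 0.0481), just past both limits. The call was lost without FP54 replicate 1 (adjusted p = 0.186), and also without DMSO replicate 1, DMSO replicate 3 or FP54 replicate 2. NB4 libraries held 9.77, 8.47 and 9.10 RPKM with DMSO and 9.31, 5.69 and 6.42 RPKM with FP54, where FP54 replicate 1 lay among the DMSO libraries. Its log2 fold change there was -0.38 ± 0.16 (adjusted p = 0.0710 in limma), and the lines differed by 0.14 with an interval of -0.38 to 0.67.

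KLF4, a Krüppel-like factor of monocyte differentiation, has 5 exons on chr9 (107484852 to 107490482, minus strand) and had the lowest level of the members. In NB4 it was at 2.12, 2.01 and 1.87 RPKM with DMSO and 1.39, 1.41 and 0.836 RPKM with FP54, without overlap, on 153 to 160 and 40 to 60 reads. It fell by 0.71 ± 0.19 on the log2 scale (limma, adjusted p = 0.00869), and the call was lost without DMSO replicate 1 or FP54 replicate 3, with a pseudocount of 1 and with no filter. In MOLM-13 KLF4 averaged 0.704 RPKM with DMSO and 0.663 RPKM with FP54, under the mean of 1 RPKM needed for a test, and the treatments overlapped.

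RUNX1 and MYB are the progenitor factors of the set. RUNX1, the DNA-binding subunit of core binding factor, has 9 exons on chr21 (34787801 to 36004667, minus strand). In NB4 it was at 8.29, 6.02 and 7.24 RPKM with DMSO and 9.51, 9.76 and 10.1 RPKM with FP54, all higher. The log2 fold change of 0.45 ± 0.12 (limma, adjusted p = 0.00861) was short of the fold minimum, which it passed without DMSO replicate 1. In MOLM-13 RUNX1 was at 8.22, 6.50 and 7.32 RPKM with DMSO and 4.47, 3.90 and 7.09 RPKM with FP54. There FP54 replicate 3 lay within the DMSO range, and the log2 fold change was -0.54 ± 0.22 (adjusted p = 0.107 in limma). The lines differed by 1.00 ± 0.27 (limma interaction, adjusted p = 0.0218), which missed the threshold in 5 of 12 fits with 1 library left out, at most by an adjusted p of 0.0569 without NB4 DMSO replicate 2.

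MYB, which keeps progenitors dividing and is needed by many leukemias, has 16 exons on chr6 (135181308 to 135219173, plus strand). It had the smallest difference between the lines of the 9 members compared. In MOLM-13 it was at 103, 80.7 and 97.7 RPKM with DMSO and 49.5, 70.8 and 77.3 RPKM with FP54, and in NB4 at 121, 93.0 and 116 RPKM and 78.8, 74.2 and 79.1 RPKM. In each line all FP54 libraries lay under all DMSO libraries. The log2 fold changes were -0.53 ± 0.18 in MOLM-13 (adjusted p = 0.0679 in limma) and -0.50 ± 0.10 in NB4 (adjusted p = 0.00244 in limma), neither of which met both parts of the rule, and the NB4 value missed only the fold minimum. The difference between the lines was 0.03, with an interval of -0.45 to 0.52, so differences of that size remain compatible with these libraries. Without FP54 replicate 3, MYB and RUNX1 joined IRF8 among the members called lower in MOLM-13. Antisense transcripts are annotated opposite CEBPA, RUNX1, MYB and KLF4 as well, with the same limit as for CEBPB.

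Likeness between genes was measured as Pearson's r of log2(RPKM + 0.1), centred in each line, over the 12 libraries and among 8849 genes. The libraries share treatment, depth and line, so r describes these libraries and carries no p. The genes most like CEBPB were SMOX (r = 0.988) and PGPEP1 (0.988), those most like CEBPD were LRG1 (0.964) and MSRB1 (0.951), and those most like CEBPE were WDR83 (0.970) and BATF (0.967). MYB was most like RFC3 (0.982) and MCM10 (0.980), which encode a subunit of the DNA clamp loader and a replication initiation protein. CEBPA was followed most closely by DEXI (0.927) and ALDH4A1 (0.921), SPI1 by OTUD5 (0.953) and XAB2 (0.949), GFI1 by ATP6AP2 (0.918) and SS18 (0.907), IRF8 by ST7L (0.938) and ACTN1 (0.927), and RUNX1 by STRIP2 (0.961) and ZNF236 (0.960). Among the members themselves, the 3 highest r were of CEBPE with SPI1 (0.879), IRF8 with MYB (0.870) and CEBPD with CEBPE (0.853). The 3 most negative were of CEBPE with RUNX1 (-0.84), SPI1 with RUNX1 (-0.80) and CEBPB with MYB (-0.74).

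Relatives of the members within their families were next described. The counts of this list and of those below stand beside the shares of all genes called. These were 9.04% lower and 9.3% higher in MOLM-13, and 10.7% and 18.6% in NB4. Of 17 relatives, 14 were tested in MOLM-13, where 2 were lower, CEBPG (-0.71 on the log2 scale) and MYBL2 (-0.68), and 1 was higher, IRF7 (0.81). The CEBPG and IRF7 calls there were lost without FP54 replicate 1, among others. In NB4, 10 were tested, 6 were higher and 0 were lower (also 0 by limma-voom and at an unadjusted p below 0.05), with a median of 0.67 beside 0.07 for all genes. The largest increases were of DDIT3 (1.90, limma adjusted p = 4.82e-05) and IRF7 (1.22, adjusted p = 4.22e-05). DDIT3 encodes CHOP, a stress-induced C/EBP relative that pairs with the other C/EBP proteins, and rose from 21.1 ± 8.32 to 75.5 ± 8.19 RPKM (SD, n = 3). The lines differed for DDIT3 by 1.63 (limma interaction, adjusted p = 0.00815) and for CEBPG by 1.27 (adjusted p = 0.00178), CEBPG being higher with FP54 in NB4 (0.56). That CEBPG call in NB4 was lost with median-ratio scaling, and without DMSO replicate 2 or FP54 replicate 2. DDIT3 overlaps other counted genes, among them 1 on its own strand, so its counts are less certain.

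Of 16 partners and cofactors, such as CBFB and histone deacetylases, 14 were tested in MOLM-13 and 0 were called by limma, 0 by limma-voom on recovered reads, and 0 had an unadjusted p below 0.05. In NB4, 1 of 15 was lower and 3 were higher, shares near those of all genes (10.7% and 18.6%), and with median-ratio scaling 2 were lower and 1 higher. TRIB2, a pseudokinase that directs C/EBPα to degradation, rose from 6.94 ± 1.08 to 23.4 ± 1.32 RPKM in NB4 (1.75 on the log2 scale, limma adjusted p = 1.39e-06), and TRIB1, its homologue with the same action, fell by 0.61. Of 25 other haematopoietic factors, 14 were tested in each line. The shares called in MOLM-13 were near those of all genes (9.04% lower and 9.3% higher). In MOLM-13, BCL11A (-0.89) and GATA2 (-0.66) were the 2 called lower and EGR2 (1.69) and EGR1 (1.15) the 2 called higher, GATA2 and EGR1 losing the call when FP54 replicate 1, among others, was left out. In NB4, 3 were lower, led by NFE2 (-0.86) and BCL11A (-0.84), and 5 were higher, led by EGR2 (1.40), a factor of monocytes and macrophages; with median-ratio scaling 5 were lower and 4 higher. GATA2 differed most between the lines (1.61, limma interaction, adjusted p = 0.000333), being higher with FP54 in NB4, followed by NFE2 (-0.71).

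Genes known to be targets of the members were taken by class. Of the 5 primary granule genes, which C/EBP factors, PU.1 and MYB activate in promyelocytes, 4 were tested in NB4 and all 4 were lower, led by CTSG (-2.60, limma adjusted p = 1.07e-07) and PRTN3 (-1.93). Beside these, 10.7% of all genes were called lower in NB4 and 9.04% in MOLM-13. In MOLM-13, 2 of the 5 granule genes were lower, MPO (-2.06) and CTSG (-0.89), and the lines differed most for CTSG (-1.71) and PRTN3 (-1.68). MPO differed the other way (1.10), as it fell less in NB4 (-0.96) than in MOLM-13. Of the 5 secondary granule genes, the classical targets of C/EBPε, 0 reached the level for a test in either line, and the highest value in any library was 0.760 RPKM. Of 4 cytokine receptors, 3 were tested. CSF1R (0.77) and CSF3R (0.61) were higher in MOLM-13, while in NB4 CSF3R was higher (0.69) and IL6R lower (-2.08), the latter differing between the lines by -1.82. The CSF3R call in NB4 was lost with median-ratio scaling.

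Among 6 monocyte genes, 5 were tested. The other, CD14, was under the level for a test and was higher with FP54 without overlap in both lines. In MOLM-13 it was at 0.484 to 0.624 RPKM with DMSO and 1.11 to 1.46 RPKM with FP54. In NB4 it was at 0.0570 to 0.190 and 0.417 to 0.557 RPKM. CYBB, a subunit of the phagocyte oxidase, and ITGAM, the integrin CD11b, were higher in MOLM-13 (0.68 and 0.65). FCGR1A was lower there by 0.41 (limma, adjusted p = 0.0479), short of the fold minimum. In NB4, ITGAM was higher (1.95, limma adjusted p = 3.46e-07), and FCGR1A (-1.07) and CYBB (-0.69) were lower. CYBB (-1.36) and ITGAM (1.30) differed most between the lines. Of 5 genes named as MYB targets, 3 were tested, and all 3 had negative log2 fold changes in both lines. CDK6 (-0.62 in MOLM-13 and -0.16 in NB4) was called in neither line, and MYC (-1.52) was not called in MOLM-13. KIT, under the level for a test, went the other way, without overlap in either line. It was at 0.056 to 0.087 RPKM with DMSO and 0.136 to 0.331 RPKM with FP54 in MOLM-13. In NB4 it was at 0.033 to 0.043 and 0.266 to 0.317 RPKM. BCL2, an inhibitor of apoptosis, was lower in MOLM-13 (-1.98, limma adjusted p = 0.00385) and in NB4 (-0.64), and MYC was lower in NB4 (-0.94). The difference for BCL2 between the lines, 1.34 (limma interaction, adjusted p = 0.0254), was lost without MOLM-13 FP54 replicate 1, among others. The medians of the 3 tested genes were -1.52 in MOLM-13 and -0.64 in NB4. CYBB shares its strand with an overlapping gene, and FCGR1A has near-identical copies, so their counts are less certain.

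**Figure D4:**
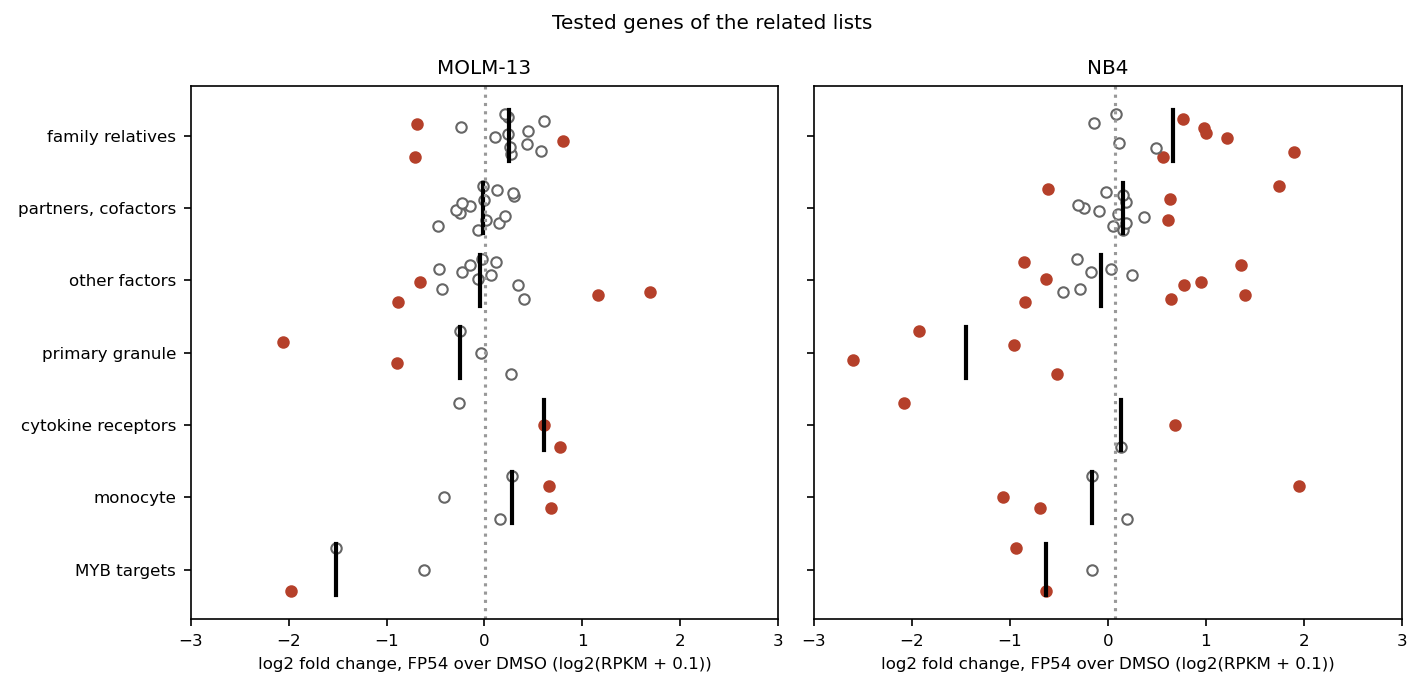
Log2 fold change with FP54 (horizontal axes) of the tested genes of each related list in MOLM-13 and NB4; filled points passed the test, the black bar is the median of the list, and the dotted line is the median of all genes. In NB4 the 4 primary granule genes all lie on the negative side, and 6 of 10 family relatives passed on the positive side. Of all genes tested in NB4, 10.7% passed as lower and 18.6% as higher.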

How the data were processed

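RNA-seq of 12 libraries was used. The other 10 of the 22 samples (m6A-seq and polysome-seq) were not analysed here. According to the methods, poly(A) RNA was sequenced with a stranded kit, trimmed with cutadapt 4.8, freed of duplicates with Clumpify, aligned to hg38 with STAR 2.7.11b and counted on GENCODE V42 protein-coding genes with featureCounts 2.0.3. The authors deposited RPKM per gene, 1 table per line. The cell line of each table rests on the table's name, and treatment and replicate on its columns. Gene lengths of GENCODE v44, matched for 20329 of 20411 genes, gave whole reads (within 0.05, at 1 to 30 reads) for 98.7 to 99.3% of low values.

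Genes with a mean of at least 1 RPKM over the 6 libraries of a line were fitted as log2(RPKM + 0.1) with limma 3.58.1 (eBayes with trend) in R 4.3.3; fold changes on this scale understate those of low genes. The p below 0.01 and log2 0.5 cutoff follows the methods. The interaction used 1 fit of 12 libraries, called at an adjusted p below 0.05. Tables were read with Python 3.11.15 and pandas 2.3.3. The fit was tested on simulated data. The alternatives tried were 2 other pseudocounts (0.01 and 1), the test of all genes or of those with a mean of 5 RPKM, median-ratio scaling, quantile normalization, the replicate block, eBayes without trend and robust, limma-voom on recovered reads, subtraction of the olfactory receptor level, other cutoffs and each library left out.

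All members are named. From each related list, the 2 largest decreases and increases called in each line and the 2 largest differences between lines are named, and for likeness the 2 highest r; some genes that this rule names are not reported here. The 3 highest and lowest r between members, and other exceptions, were picked with their values in view. The members and lists were chosen with earlier results of these data known, and the lists come from general knowledge.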

Additional observations from a re-analysis of the deposited data

Results flagged for a closer look

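The response to FP54 differed between the cell lines for 5 members by the limma interaction, given as the NB4 effect minus the MOLM-13 effect on the log2 scale. The difference was 1.31 for CEBPB, -1.63 for CEBPD, -1.21 for CEBPE, -0.56 for SPI1 and 1.00 for RUNX1. Relative to the median of all genes, 0.08, these are 1.23, -1.71, -1.29, -0.64 and 0.92. CEBPD was called in opposite directions in the 2 lines, CEBPB and CEBPE were called in NB4 and not in MOLM-13, and SPI1 and RUNX1 were called in neither line alone. Groups of 3 libraries were not tested for single values far from the others; NB4 DMSO replicate 2, which stood apart over all genes, left 3 of these differences past the test when left out (CEBPB, CEBPD and CEBPE).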

How the results depend on the processing

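The differences between lines of CEBPB, CEBPD and CEBPE passed in every alternative and with each library left out. The calls in MOLM-13 were less stable. The count of 1 lower member there became 0 with a pseudocount of 1, no filter, quantile normalization, eBayes without a trend, or p below 0.05 with a log2 change of at least 1, and ranged from 0 to 3 with 1 library left out. The count of 1 higher became 0 with no filter, eBayes without a trend or the cutoff of 1, and 0 to 1 with a library left out. In NB4, the 3 lower members became 6 with median-ratio scaling and 5 at an adjusted p below 0.05 with no fold minimum. They became 1 at the cutoff of 1, and 2 (without KLF4) with a pseudocount of 1, no filter or a mean of 5 RPKM. Over libraries left out the range was 2 to 5 (5 without FP54 replicate 1). The 1 higher became 2 at an adjusted p below 0.05, and 1 to 2 with a library left out. The 5 differences between lines became 3 at an adjusted p below 0.01 and ranged from 3 to 5 with a library left out (3 without MOLM-13 DMSO or FP54 replicate 1, NB4 DMSO replicate 2, or NB4 FP54 replicate 2 or 3). The difference for SPI1 was also lost with a mean of 5 RPKM (adjusted p = 0.0528), quantile normalization (0.0896) and eBayes without a trend (0.0595). The cause was not tested.

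Replicate numbers did not pair the libraries: deviations of same-numbered libraries correlated at -0.26, -0.13 and -0.06 in MOLM-13 and at -0.14, 0.07 and 0.12 in NB4. In MOLM-13, DMSO 1 with FP54 3 (0.59), DMSO 2 with FP54 1 (0.49) and DMSO 3 with FP54 2 (0.47) correlated positively. All other pairs of that line were negative. The replicate block used the same-numbered libraries, and a pairing under other numbers was not tested. With the replicate block the lower count in MOLM-13 was 0, and the difference for SPI1 had an adjusted p of 0.104 in limma. MOLM-13 FP54 replicate 2, the shallowest library with 5835173 reads, limits KLF4, which rested there on 11 reads.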

Other observations

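In NB4, 7 family relatives were under the level for a test. KLF2, a Krüppel-like factor of quiescent cells, was at 0.223 to 0.333 RPKM with DMSO and 1.25 to 1.37 RPKM with FP54, and IRF5, an interferon regulatory factor of macrophages, at 0.586 to 0.747 and 1.20 to 1.28 RPKM. GFI1B, the erythroid and megakaryocytic relative of GFI1, was at 0.405 to 0.515 and 0.929 to 1.43 RPKM. All FP54 libraries were above all DMSO libraries for 6 of the 7. Of the genes tested in NB4, 60.5% showed no overlap, counting both directions. The share with FP54 higher among genes under that level was not computed. The 3 named were chosen with their values in view. The mean of the olfactory receptor genes differed 18.4-fold in the same libraries, in the same direction; its part in these values was not tested. CSF2RA was listed at 0 in all 12 libraries, and lies in the pseudoautosomal region that both sex chromosomes share.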
